A study of Mus musculus with 13 samples.

Results

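The 10 genes described here encode enzymes of mitochondrial fatty acid oxidation: Cpt1a, Cpt2, Acadvl, Acadl, Acadm, Hadha, Hadhb, Echs1, Hadh and Acaa2. They were chosen by name, as the core enzymes of the pathway, out of 36158 genes to which the listed transcripts could be matched, and the estimated counts and TPM (an expression level scaled to transcript length and library size) of each were summed over its transcripts. Their expression was compared between Hmox2-/- and Hmox2+/+ mice in heart tissue and in aortic endothelial cells (ECs), and between the tissues in Hmox2+/+ mice. Hmox2 encodes heme oxygenase 2, the constitutive enzyme that breaks down heme to biliverdin, iron and carbon monoxide. The knockout mice carry a deletion of Hmox2, the controls were their wild-type littermates, and all mice were kept in room air. There were 13 libraries, 4 from Hmox2+/+ hearts, 3 from Hmox2-/- hearts, 3 from Hmox2+/+ ECs and 3 from Hmox2-/- ECs. Heart RNA came from the whole organ, frozen and powdered. EC RNA was obtained by flushing the lumen of the aorta with a lysis reagent and not by sorting cells. The mice sequenced were young, while their exact age, strain background and sex are not given in the sources used here, and which EC and heart libraries share an animal is not labelled, so p-values measure only the spread between these libraries. In such bulk samples fewer cells of a type and less RNA per cell cannot be told apart.

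Long-chain fatty acids enter the mitochondrion as carnitine esters. Carnitine palmitoyltransferase 1, in the outer membrane, forms the ester and is the regulated step. Cpt1a encodes the liver form, Cpt1b the muscle form, and Cpt2 the inner-membrane enzyme that returns the chain to coenzyme A. Each round of beta-oxidation then has 4 reactions. The acyl-CoA dehydrogenases of very long (Acadvl), long (Acadl) and medium (Acadm) chains make the first double bond. For long chains the remaining steps are carried out by the mitochondrial trifunctional protein, whose alpha subunit (Hadha) holds the hydratase and hydroxyacyl-CoA dehydrogenase and whose beta subunit (Hadhb) holds the thiolase. For shorter chains the same steps belong to separate matrix enzymes, the enoyl-CoA hydratase Echs1, the hydroxyacyl-CoA dehydrogenase Hadh and the thiolase Acaa2. The adult heart draws most of its energy from this pathway, and its genes are known targets of PPAR alpha and the estrogen-related receptors.

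The sequences upstream of 5 of the enzymes are shown because the results in heart tissue turn on these genes: Hadh, Cpt1a and Echs1 changed most, and Hadha and Hadhb are neighbours that start head to head. Each is the 250 bases before the RefSeq start site (build GRCm38.p6), read 5′ to 3′ on the strand of the gene: Hadh at chr3:131272102-131272351 (minus strand), Hadha at chr5:30154981-30155230 (minus strand), Hadhb at chr5:30155003-30155252 (plus strand), Cpt1a at chr19:3323051-3323300 (plus strand) and Echs1 at chr7:140116422-140116671 (minus strand). Capitals mark the nuclear receptor half-site AGGTCA on either strand.
Hadh: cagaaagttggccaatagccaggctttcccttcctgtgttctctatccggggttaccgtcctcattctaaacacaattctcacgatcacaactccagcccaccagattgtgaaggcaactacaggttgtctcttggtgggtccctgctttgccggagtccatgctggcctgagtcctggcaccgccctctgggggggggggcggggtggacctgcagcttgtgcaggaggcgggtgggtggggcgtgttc
Hadha: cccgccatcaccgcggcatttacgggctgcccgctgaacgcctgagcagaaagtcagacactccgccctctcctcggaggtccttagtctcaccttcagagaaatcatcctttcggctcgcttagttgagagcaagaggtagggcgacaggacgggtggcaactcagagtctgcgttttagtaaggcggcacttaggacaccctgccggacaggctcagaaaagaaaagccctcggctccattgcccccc
Hadhb: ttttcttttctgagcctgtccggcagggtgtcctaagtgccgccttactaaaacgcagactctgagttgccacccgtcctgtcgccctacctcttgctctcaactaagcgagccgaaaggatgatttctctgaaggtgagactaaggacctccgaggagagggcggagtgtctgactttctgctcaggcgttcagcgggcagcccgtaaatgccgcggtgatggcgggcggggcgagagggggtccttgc
Cpt1a: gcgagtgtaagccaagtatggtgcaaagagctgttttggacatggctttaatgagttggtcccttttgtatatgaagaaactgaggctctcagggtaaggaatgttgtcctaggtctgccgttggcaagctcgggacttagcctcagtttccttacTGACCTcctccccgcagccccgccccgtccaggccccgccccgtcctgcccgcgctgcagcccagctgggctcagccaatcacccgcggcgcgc
Echs1: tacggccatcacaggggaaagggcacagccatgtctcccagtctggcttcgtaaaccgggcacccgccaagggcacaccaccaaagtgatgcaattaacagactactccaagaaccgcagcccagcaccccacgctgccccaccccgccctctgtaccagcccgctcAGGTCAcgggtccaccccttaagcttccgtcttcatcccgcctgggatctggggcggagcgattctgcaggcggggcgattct
The Hadha and Hadhb windows are largely the same DNA read in opposite directions, with 228 bases in common. RefSeq windows were matched for 9 of the 10 enzymes. The half-site AGGTCA was found in 4 of the 9 (Acadm, Acadvl, Cpt1a and Echs1) and in 14.0% of 32851 windows of the same length. Neither the direct repeat of this half-site with 1 base between the copies, the spacing bound by PPAR and RXR, nor the extended half-site TNAAGGTCA of estrogen-related receptors was found in any of the 9, against 0.0335% and 1.14% of all windows. The GC box GGGCGG was found in 7 of 9, including the Hadh, Hadha and Hadhb windows, and in 32.7% of all windows. The only Hadha box is the same site as 1 of the 2 Hadhb boxes, so these windows do not count independently. These are matches of letters on both strands, and both the direct repeat and TNAAGGTCA contain AGGTCA.

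The labels were checked with Hmox2, which stood at 20.3% of its Hmox2+/+ level in Hmox2-/- hearts (37.3 to 42.5 against 7.53 to 8.90 CPM, counts scaled to library size) and at 19.7% in Hmox2-/- ECs. Of the stretches of 31 bases in Hmox2 transcripts, 73.4% also occur in other genes, mainly Cdip1. The source of the counts left in Hmox2-/- libraries was not tested. Library totals ran from 26067147 to 31619776 estimated counts except for Hmox2+/+ heart 1, which held 7268626. Mitochondrially encoded transcripts took 37.6% to 44.3% of the counts in Hmox2+/+ hearts, 22.5% to 27.2% in Hmox2-/- hearts and 19.4% to 30.9% in ECs. Heart libraries carried cardiomyocyte markers at a summed 61480 to 71103 CPM. The EC libraries carried endothelial markers (Pecam1 1282 to 3108 CPM, Cdh5 225 to 340 CPM) together with markers of other cells. Among these were Ucp1 of brown adipocytes (1340 to 2712 CPM, against at most 0.142 in any heart) and Adipoq of adipocytes (642 to 1056.2 CPM). In Hmox2+/+ ECs the 12 endothelial markers summed to 3439 to 4991 CPM and the 8 adipocyte markers to 7179 to 11254 CPM. In Hmox2-/- ECs these sums were 5961 to 7254 and 7190 to 9051 CPM. Ddx3y, a Y-linked gene, was at 61.7 to 66.8 CPM in all Hmox2+/+ EC libraries and at 86.4 CPM in Hmox2-/- EC 1. It was at 1.03 and 0.919 CPM in Hmox2-/- EC 2 and 3, while the hearts all held 37.0 to 86.5 CPM. Judged by this gene, sex was unbalanced between the genotypes in ECs. Its part in the EC results and in the comparison of genotype effects between tissues was not tested.

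In heart tissue 3 of the enzymes fell in Hmox2-/- mice, Hadh, Cpt1a and Hadha, and Echs1 rose, while the other 6 did not pass the test. The median log2 fold change of the 10 enzymes was −0.07, beside −0.01 over all 13818 genes tested. Calls rest on edgeR's quasi-likelihood test with Benjamini-Hochberg adjustment (threshold 0.05), and by that rule 33.4% of all genes tested in the heart were called, 16.2% lower and 17.2% higher. Hence 4 of 10 enzymes called is close to the share of the genome that changed. When a 2-fold change was also required, Hadh was the one enzyme left, against 4.05% of all genes lower and 2.66% higher.

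Hadh, the matrix hydroxyacyl-CoA dehydrogenase of short and medium chains, showed the largest change of the 10. It stood at 542, 524, 587 and 566 CPM in the 4 Hmox2+/+ hearts and at 206, 207 and 194 CPM in the 3 Hmox2-/- hearts. The 3 knockout values lay close together and far under the lowest wild-type value. The log2 fold change was −1.46 ± 0.09 (SE; adjusted p = 1.90e-06, edgeR), which left 36.4% of the wild-type level, and only 2.44% of all genes tested had as low a fold change. The call held under all 17 alternative settings tried, with fold changes between −1.68 and −1.19. Hadh lies at chromosome 3, 131027068 to 131065750, on the minus strand (GRCm39), and 2.51% of its words of 31 bases, the unit Kallisto matches, occur in other genes.

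Cpt1a fell as well, from a much lower base. Its values were 53.4, 52.6, 64.0 and 64.1 CPM in Hmox2+/+ hearts and 31.9, 38.2 and 36.8 CPM in Hmox2-/- hearts, with no overlap. The log2 fold change was −0.72 ± 0.11 (adjusted p = 0.00133, edgeR), that is 60.7% of the wild-type level. The muscle isoform Cpt1b, by contrast, stood at 545 to 617 CPM in Hmox2+/+ and 598 to 630 CPM in Hmox2-/- hearts, a log2 difference of 0.07 with an interval of 2 SE from −0.11 to 0.25 that did not pass the test. Cpt2 did not pass either, with 165 to 193 CPM against 156 to 174 CPM and an interval from −0.25 to 0.13. In the transport step, therefore, the called change was in the minor isoform of the outer-membrane enzyme.

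Echs1, the short-chain enoyl-CoA hydratase that acts just before Hadh, moved the opposite way. The 4 Hmox2+/+ hearts lay within a narrow band at 263.5, 265, 264 and 268 CPM, and the Hmox2-/- hearts stood at 418, 370.4 and 366 CPM. All 3 knockout hearts were above all 4 wild-type hearts, Hmox2-/- heart 1 most of all. The log2 fold change was 0.54 ± 0.09 (adjusted p = 0.00171, edgeR), or 145% of the wild-type level. Acaa2, the thiolase that follows Hadh, was at 744 to 776 CPM in Hmox2+/+ and 655 to 738 CPM in Hmox2-/- hearts. These ranges did not overlap, yet the difference of −0.11 ± 0.09 did not pass the test (adjusted p = 0.367, edgeR). Thus of the 3 successive matrix enzymes for shorter chains, Echs1 rose, Hadh fell and Acaa2 was not called.

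The subunits of the trifunctional protein differed from each other although their genes start head to head. Hadha was at 1278, 1264, 1248 and 1302 CPM in Hmox2+/+ hearts and at 985, 1074.9 and 1053 CPM in Hmox2-/- hearts, a log2 fold change of −0.29 ± 0.09 (adjusted p = 0.0256, edgeR). Hadhb was at 1718, 1679.6, 1713 and 1730.1 CPM in Hmox2+/+ and at 1691, 1684 and 1745 CPM in Hmox2-/- hearts, a log2 difference of −0.00 with an interval from −0.18 to 0.17. The Hadha ranges were apart and the Hadhb ranges overlapped. The Hadha call was less stable than those of Hadh, Cpt1a and Echs1: it held under 8 of the 17 alternative settings and was lost without any one of Hmox2+/+ hearts 1 to 4 or without Hmox2-/- heart 2 (adjusted p of 0.0551 to 0.0680 in these 5 fits, edgeR).

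The acyl-CoA dehydrogenases, which open each round, were not called. Acadvl was at 806 to 904 CPM in Hmox2+/+ and 836 to 895 CPM in Hmox2-/- hearts, with a log2 difference of 0.04 and an interval from −0.15 to 0.22. Acadm was at 1034 to 1147 CPM against 1014 to 1060.3 CPM, with an interval from −0.26 to 0.10. Acadl stood higher in all 3 Hmox2-/- hearts, at 1035, 993 and 925 CPM against 840, 833, 868 and 887 CPM. Its log2 difference of 0.20 ± 0.09 did not pass after adjustment (adjusted p = 0.109, edgeR). For 6 of the 10 enzymes the heart libraries of the genotypes did not overlap, a condition met by 40.4% of all genes tested.

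**Figure D1:**
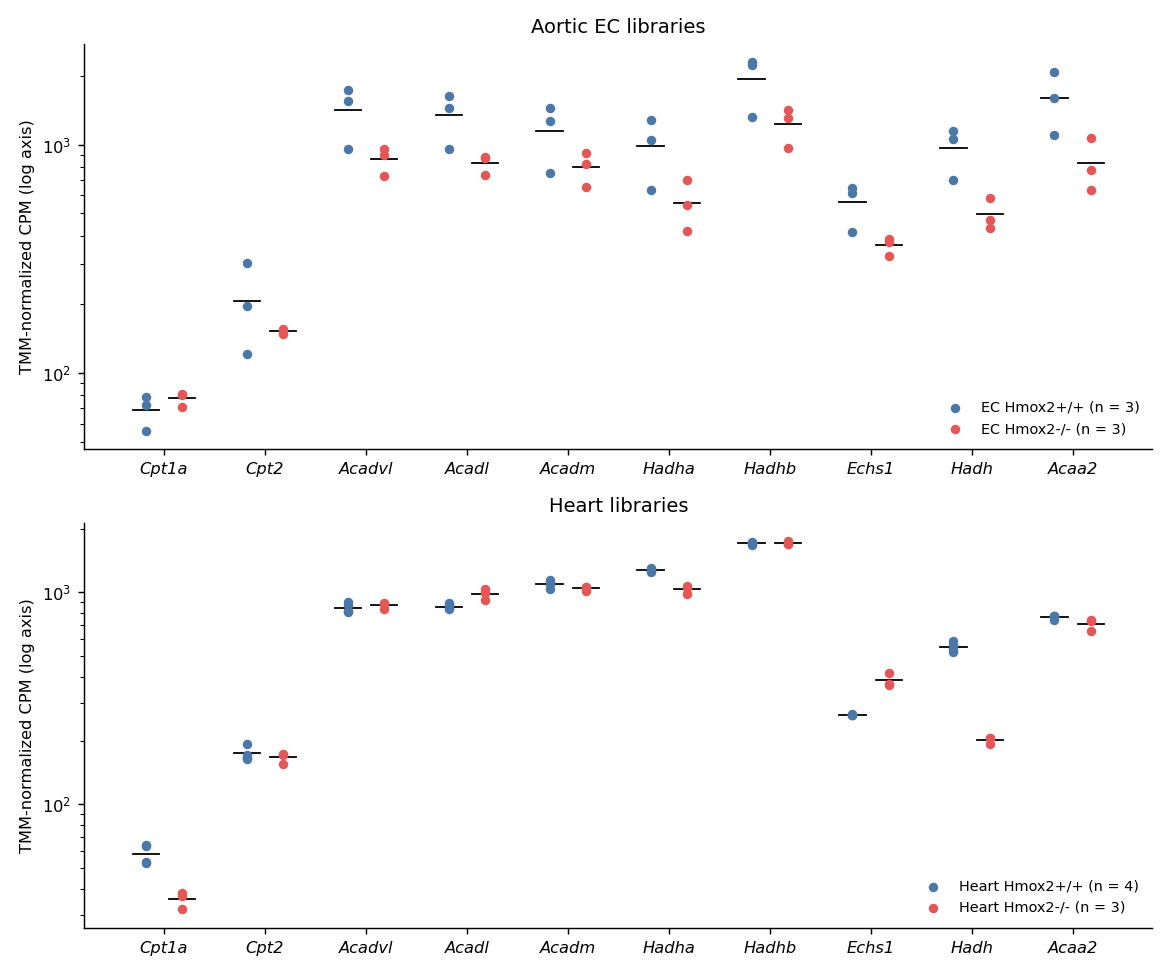
TMM-normalized CPM of the 10 enzymes in each library, on a log axis, ordered along the pathway. Points are libraries and black lines group means. In hearts the Hadh points of the genotypes are well apart (524 to 587 against 194 to 207 CPM) and the Hadhb points overlap, and in ECs the Hmox2+/+ libraries are more widely spread than the Hmox2-/- libraries.

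These heart values depend on how the libraries are scaled, and the mitochondrially encoded share differed between the genotypes. Scaled to library totals instead of TMM (a setting added once the data had been seen), the median log2 fold change of all genes moved from −0.01 to 0.26 and the split of calls moved from 17.2% higher and 16.2% lower to 35.6% higher and 6.58% lower. On that scale Hadh (−1.19) and Cpt1a (−0.45) were still called lower and Echs1 (0.81) higher, Hadha was no longer called (−0.03), and Acadl (0.47), Acadvl (0.30) and Hadhb (0.26) were called higher. As a share of all counts the 10 enzymes made up 0.679% to 0.730% in Hmox2+/+ and 0.781% to 0.806% in Hmox2-/- hearts. As a share of nuclear-encoded counts they made up 1.17% to 1.22% and 1.04% to 1.09%. The direction for the enzymes as a group therefore turned with the denominator, while those of Hadh, Cpt1a and Echs1 did not.

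Several other features of the heart libraries moved with genotype, and their part in the results was not tested. The counts of markers called are to be read against 17.2% of all genes tested higher and 16.2% lower. Of 12 cardiomyocyte markers tested 6 were higher and 1 lower (summed 61480 to 65369 CPM in Hmox2+/+ and 63845 to 71103 CPM in Hmox2-/- hearts). Of 12 endothelial markers 3 were higher (629 to 754 against 810 to 855 CPM), of 8 smooth muscle markers 4 were higher and 1 lower, and of 7 macrophage markers 3 were higher. Brown adipocyte markers summed to 527 to 605 CPM in Hmox2+/+ and 855 to 1692 CPM in Hmox2-/- hearts. Of its 5 members tested Cox7a1 and Cox8b, oxidase subunits that heart muscle also makes, were called higher (log2 fold changes of 1.26 and 1.24) and Dio2 lower (−1.15), while Ucp1 was at 0 in all 3 Hmox2-/- hearts. Fibroblast markers were lower for 2 of 6, adipocyte markers higher for 1 of 5, skeletal muscle markers higher for 2 and lower for 1 of 5, and no T or B cell marker passed the filter. On the scale of library totals 8 of 12 cardiomyocyte markers were higher and 1 lower. Higher there were also 7 of 12 endothelial, 6 of 8 smooth muscle, 5 of 7 macrophage and 1 of 6 fibroblast markers, and none of these was lower. Of all genes 35.6% were higher and 6.58% lower on that scale.

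The split over transcripts differed between the tissues for Hadhb, Hadhb-201 holding on average 66.8% of its counts in Hmox2+/+ hearts and 69.5% in Hmox2-/- hearts but 54.2% and 55.9% in ECs, with Hadhb-203 making up most of the rest. Hadh-201, the protein-coding transcript, held on average 99.9% of Hadh counts in Hmox2+/+ hearts and 99.3% in Hmox2-/- hearts, so the fall in Hadh was a fall in this transcript. Hadh-202, annotated as a retained intron, had 0 to 27.4 estimated counts in Hmox2+/+ and 35.4 to 52.5 in Hmox2-/- hearts, or 0.108% and 0.681% of the gene on average. Acadm-210, another retained-intron transcript, went from 10.8 to 37.6 estimated counts in Hmox2+/+ hearts to 534 to 1225 in Hmox2-/- hearts (0.164% and 2.21% of the gene on average), but it reached 1490 in Hmox2+/+ EC 1 as well. Hadha counts were split between Hadha-201 and Hadha-205 (62.2% and 37.5% in Hmox2+/+ hearts, 63.2% and 36.6% in Hmox2-/- hearts, 58.5% and 41.1% in Hmox2+/+ ECs, 53.98% and 45.3% in Hmox2-/- ECs). Hadha-205 is annotated as protein-coding, whereas Hadha-201, with the larger share, is annotated without a defined coding sequence. Transcript shares are Kallisto's estimates and carry no test here.

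Some of the enzymes share sequence with other genes, which bears on their estimated counts. For Hadhb 23.8% of the words are found elsewhere, mainly in the copies Hadhb-ps and Gm9108, which held at most 1.03 CPM in any EC or heart library. Acadm has 5.96% of its words in common with Gm5131, which held at most 0.0708 CPM. Hadha overlaps Garem2 (22.3% of words) and Acadvl overlaps Dvl2 (33.0%). Garem2 was at most 0.267 CPM, and Dvl2 was at 3.98 to 15.6 CPM, far under Acadvl. Dvl2 itself was called lower in Hmox2-/- hearts. Adding the near-identical copies to their parent genes changed no call. Echs1 has 10.2% of its words in common with others, Paox first among them (1.93 to 3.50 CPM in hearts).

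In aortic ECs 9 of the 10 enzymes had lower fitted levels in Hmox2-/- mice, but only Hadh passed the test. The median log2 fold change of the enzymes was −0.68, beside −0.02 over all 15303 genes tested. Of all genes tested 18.1% were called, 8.06% lower (1533 genes were higher), so 1 enzyme of 10 is no more than the background share. No enzyme was called with a 2-fold change, against 3.89% of all genes lower and 5.39% higher, and 4 of the 10 had libraries that did not overlap between genotypes, against 40.7% of all genes tested.

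Hadh was at 1144, 1056.6 and 698 CPM in the Hmox2+/+ EC libraries and at 431, 584 and 469 CPM in the Hmox2-/- EC libraries. The log2 fold change was −0.97 ± 0.23 (adjusted p = 0.0307, edgeR), or 51.2% of the wild-type level. All 3 knockout libraries were under all 3 wild-type libraries, though Hmox2+/+ EC 3 stood closer to the knockouts than to the other wild types. The call was lost on leaving out any one of Hmox2+/+ EC 1 or 2 or Hmox2-/- EC 1, 2 or 3, with adjusted p of 0.0608 to 0.119 and fold changes of −1.10 to −0.83.

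Acaa2 showed nearly the same difference without passing: 2073, 1605 and 1107 CPM in Hmox2+/+ against 634, 1072.3 and 778 CPM in Hmox2-/- EC libraries, a log2 difference of −0.95 ± 0.30 (adjusted p = 0.0640, edgeR). Echs1 was at 649, 617 and 413 CPM against 325, 385 and 376 CPM (−0.63 ± 0.20, adjusted p = 0.0685). Acadl was at 1629, 1454.5 and 961 CPM against 733, 872 and 880.2 CPM (−0.70 ± 0.24, adjusted p = 0.0758). In each of these 3 the lowest wild-type library, Hmox2+/+ EC 3, lay just above the highest knockout library.

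For the other enzymes the genotypes overlapped. Hadha ran from 630.3 to 1282 CPM in Hmox2+/+ and from 420.1 to 703 CPM in Hmox2-/- ECs, Hadhb from 1327 to 2293 and from 963 to 1419 CPM, Acadvl from 959 to 1737 and from 726 to 961 CPM, and Acadm from 751 to 1441 and from 655 to 923 CPM. Their log2 differences lay between −0.83 and −0.53, with adjusted p of 0.0928 to 0.209 (edgeR). Cpt2 was spread over 196, 303 and 121 CPM in the Hmox2+/+ libraries and lay at 155, 153 and 148 CPM in the Hmox2-/- libraries, inside that spread. Cpt1a alone had a positive difference, 0.17 with an interval from −0.12 to 0.46, at 55.8, 72.0 and 78.7 CPM against 71.04, 81.2 and 80.3 CPM.

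The number of enzymes called in ECs varied most with Hmox2+/+ EC 3. The summed CPM of the 10 enzymes was 12262, 11442 and 7047 in the Hmox2+/+ libraries and 5114, 7153 and 6303 in the Hmox2-/- libraries, so Hmox2+/+ EC 3 fell inside the knockout range. Without it 9 enzymes were called lower, all but Cpt1a, in a fit that called 11% of all genes lower. On leaving out any other EC library none was called, in fits that called only 1.68% to 4.75% of all genes lower. The median log2 fold change of the enzymes was −0.89 without Hmox2+/+ EC 3 and −0.76 to −0.54 in those other fits. DESeq2 called 7 lower on all 6 libraries, beside 12.7% of all genes, and a fit of all 13 libraries in one model likewise called 7, beside 15% of all genes.

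Markers of other cells moved between the EC libraries beside the enzymes, and their part in the result was not tested. The counts of markers called stand beside 8.06% of all genes lower and 18.1% called in either direction. Brown adipocyte markers, from a cell type rich in these enzymes, summed to 5332, 4285 and 3108 CPM in Hmox2+/+ and 2619, 4474 and 3992 CPM in Hmox2-/- libraries. Within each genotype the library with the lowest sum of the enzymes was the one with the lowest brown adipocyte sum. Across genotypes the sums did not keep the same order. Hmox2-/- EC 2 had 4474 CPM of brown adipocyte markers against 4285 in Hmox2+/+ EC 2, but 7153 against 11442 CPM of the enzymes. The log2 fold change was positive for 4 of the 8 brown adipocyte markers. Of the 8 brown adipocyte markers 1 was lower and none higher, and of the 8 adipocyte markers 1 was lower (summed 7179 to 11254 CPM against 7190.2 to 9051 CPM). Cardiomyocyte markers were lower for 12 of 13 (175 to 645 CPM against 12.5 to 16.9 CPM), skeletal muscle markers for 8 of 8 (38.9 to 129 against 2.06 to 2.45 CPM) and smooth muscle markers for 3 of 8 (3464 to 6760.3 against 1154 to 3786 CPM). Endothelial markers were higher for 6 of 12 and lower for 1 (3439 to 4991 against 5961 to 7254 CPM), fibroblast markers were higher for 3 of 6, and macrophage markers for 3 of 7, and none of 4 T and B cell markers passed. Hmox2-/- EC 1, the one knockout EC library with Ddx3y at the level of the others, had the lowest Hadh and the lowest sum of the enzymes of all 6.

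**Figure D2:**
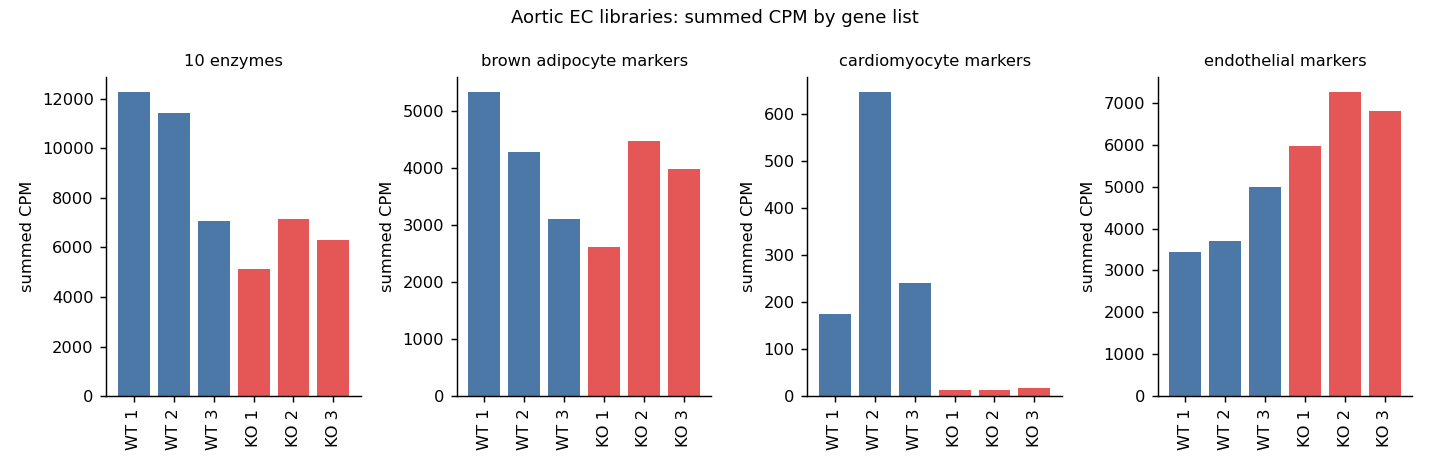
Summed CPM of the 10 enzymes and of 3 marker lists in each aortic EC library (WT, Hmox2+/+ and KO, Hmox2-/-). One bar is one library. The enzymes run from 5114 to 12262 CPM with WT 3 inside the KO range, cardiomyocyte markers are at 12.5 to 16.9 CPM in KO and 175 to 645 CPM in WT libraries, and endothelial markers are higher in all KO libraries.

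Whether loss of Hmox2 acted differently in the tissues was tested as an interaction, the log2 fold change in hearts minus that in ECs. Of the 10 enzymes 5 passed, against 28.9% of 15911 genes tested (16.2% higher and 12.7% lower). Echs1 had the largest difference, 1.21 ± 0.21 (adjusted p = 0.00145, edgeR), being called higher in hearts and having a negative difference in ECs. Acadl (0.94 ± 0.24), Acaa2 (0.87 ± 0.30) and Acadvl (0.79 ± 0.27) were also positive, with differences from −0.95 to −0.70 in ECs and from −0.11 to 0.20 in hearts. Cpt1a went the other way at −0.85 ± 0.19 (adjusted p = 0.00527), called lower in hearts and not in ECs. When a 2-fold difference was also required only Echs1 was left, against 8.09% of genes higher and 7.33% lower. For Hadh, called lower in each tissue, the difference was −0.45 with an interval from −0.93 to 0.03 and did not pass (adjusted p = 0.171). The calls of Echs1, Acadl and Cpt1a held under all 22 alternative settings, that of Acadvl under 9 and that of Acaa2 under 8.

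**Figure D3:**
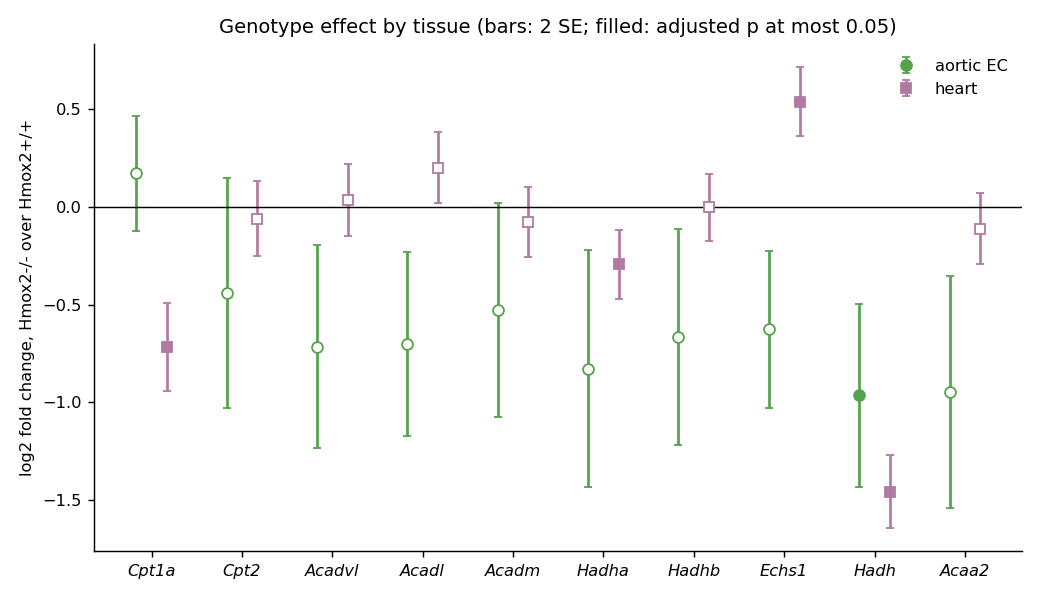
Log2 fold change of Hmox2-/- over Hmox2+/+ for each enzyme in aortic ECs (circles, 3 against 3 libraries) and hearts (squares, 3 against 4 libraries). Bars are 2 SE and filled symbols have an adjusted p of at most 0.05. Hadh is under 0 in both tissues, Cpt1a in hearts only, and the EC bars are wider than the heart bars.

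At baseline, in Hmox2+/+ mice, 4 enzymes were higher in hearts than in ECs and none lower, where 67.9% of 14779 genes tested were called (32.5% higher and 35.4% lower). Hadha had the largest difference, at 1466, 1503, 1465 and 1534 CPM in hearts and 743, 925 and 451 CPM in ECs, or 2.11-fold (log2 1.08 ± 0.23, adjusted p = 0.00188, edgeR). Acadm (0.65 ± 0.21), Hadhb (0.52 ± 0.21) and Cpt1a (0.48 ± 0.14) followed, with adjusted p of 0.0216, 0.0451 and 0.0118. Hadha was also the one enzyme with a 2-fold change, against 17.0% of genes higher and 22.6% lower. Hadh (−0.09, interval from −0.44 to 0.26), Acadvl (−0.03, from −0.43 to 0.37) and Acadl (0.06, from −0.31 to 0.43) did not pass, nor did Cpt2 (0.46), Echs1 (−0.37) and Acaa2 (−0.34). Cpt1b was higher in hearts by 0.95 ± 0.23 (adjusted p = 0.00475).

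That baseline comparison depends on scaling. Scaled to library totals the median of all genes moved from −0.06 to −0.87, the split of calls became 13.5% higher and 63.9% lower, and no enzyme was higher in hearts while Hadh, Acadl, Acadvl, Echs1 and Acaa2 were lower (log2 differences of −1.15 to −0.73). Without Hmox2+/+ heart 4 only 2 enzymes were called, and without Hmox2+/+ EC 3 there were 6, of which 2 were lower in hearts. Brown adipocyte and adipocyte markers summed to 3108 to 5332 and 7179 to 11254 CPM in Hmox2+/+ ECs and to 527 to 605 and 203 to 275 CPM in Hmox2+/+ hearts, each on the scale of its own tissue, and their part in the comparison was not tested.

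Levels of different genes were compared as TPM, which are scaled to transcript length. In Hmox2+/+ hearts Hadhb was highest (843 ± 66.5 TPM, SD, n = 4), above Acadm (545 ± 25.4), Acaa2 (524 ± 50.2), Acadl (453 ± 30.5), Hadha (423 ± 35.9), Acadvl (399 ± 56.1), Hadh (314 ± 12.6), Echs1 (175 ± 15.4), Cpt2 (74.2 ± 5.17) and Cpt1a (13.2 ± 0.784). The ranges of neighbours from Acadm down to Acadvl overlapped, although within libraries Acaa2 lay above Acadl, and Acadl above Hadha, in 4 of 4 hearts, and Acadm above Acaa2 and Hadha above Acadvl in 3 of 4. In Hmox2-/- hearts Hadh (142 ± 4.66 TPM, n = 3) lay under Echs1 (316 ± 13.8), whereas in every Hmox2+/+ heart it lay above it. Hadh and Echs1 thus exchanged places, and the ranges of the genes did not overlap in either genotype.

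In Hmox2+/+ ECs Acaa2 (1232 ± 223 TPM, n = 3) and Hadhb (1096 ± 259.6) led, with overlapping ranges, followed by Acadl (815 ± 158), Acadvl (751 ± 164), Acadm (677 ± 156), Hadh (626 ± 118), Echs1 (424 ± 79.1), Hadha (374 ± 131), Cpt2 (101 ± 51.3) and Cpt1a (18.5 ± 5.74). The ranges of neighbours were apart only after Hadh, after Hadha and after Cpt2, although within libraries the order from Acaa2 down to Acadm held in 3 of 3. In Hmox2-/- ECs Hadhb (686 ± 98.6) and Acaa2 (636 ± 108) overlapped at the top, and Hadh (317 ± 19.2) and Echs1 (272 ± 21.9) overlapped lower down. Cpt2 and Cpt1a were the lowest enzymes in all 4 groups. Cpt1b exceeded Cpt1a in every library, at 141 to 233 TPM in Hmox2+/+ ECs and 171 to 232 TPM in Hmox2+/+ hearts. The EC libraries also held markers of brown adipocytes and cardiomyocytes, and which cells carried the Cpt1b there was not tested. Cpt1b shares 76.1% of its words with Gm44502, which held at most 5.72 CPM.

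**Figure D4:**
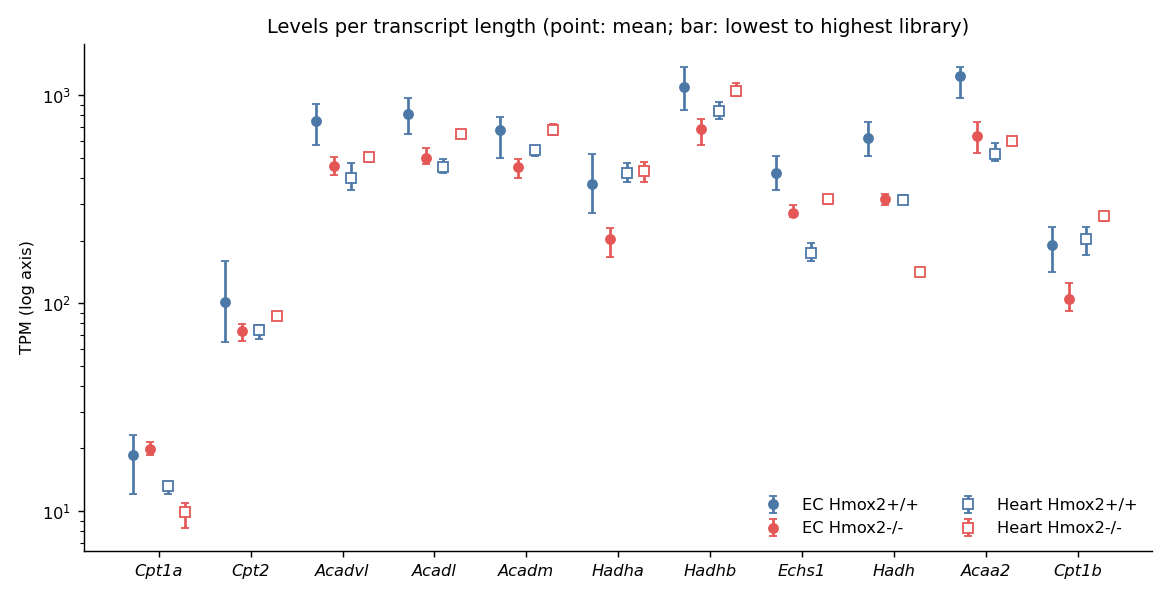
TPM of the 10 enzymes and of Cpt1b by group, on a log axis. Points are means over 3 or 4 libraries and bars run from the lowest to the highest library. Hadh drops below Echs1 in Hmox2-/- hearts (142 against 316 TPM), and Cpt1a and Cpt2 are the lowest of the 10 enzymes in every group.

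Ratios within a library do not depend on scaling between libraries. The ratio of Hadh to Hadha was 0.706 to 0.790 in Hmox2+/+ hearts, 0.306 to 0.358 in Hmox2-/- hearts, 1.43 to 1.89 in Hmox2+/+ ECs and 1.46 to 1.79 in Hmox2-/- ECs. Genotypes were apart in hearts and overlapped in ECs. Hadha to Hadhb was 0.496 to 0.507 in Hmox2+/+ hearts, the tightest of all these ratios, and 0.386 to 0.426 in Hmox2-/- hearts, a log2 difference of −0.29. It was 0.304 to 0.383 in Hmox2+/+ ECs and 0.277 to 0.325 in Hmox2-/- ECs.

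For Cpt1a over Cpt1b the hearts held 0.0563 to 0.0786 (Hmox2+/+) and 0.0334 to 0.0402 (Hmox2-/-), and the ECs 0.0520 to 0.164 and 0.172 to 0.209, apart in both tissues but in opposite directions. The EC libraries held markers of other cells beside endothelial ones, and their part in these ratios was not tested. Cpt2 to Acadvl overlapped in both tissues. None of the 12 ratio tests could pass: exact two-sided permutation tests gave p = 0.0571 at the least for 3 against 4 libraries (adjusted p = 0.137 over the 12) and cannot go below 0.1 for 3 against 3.

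**Figure D5:**
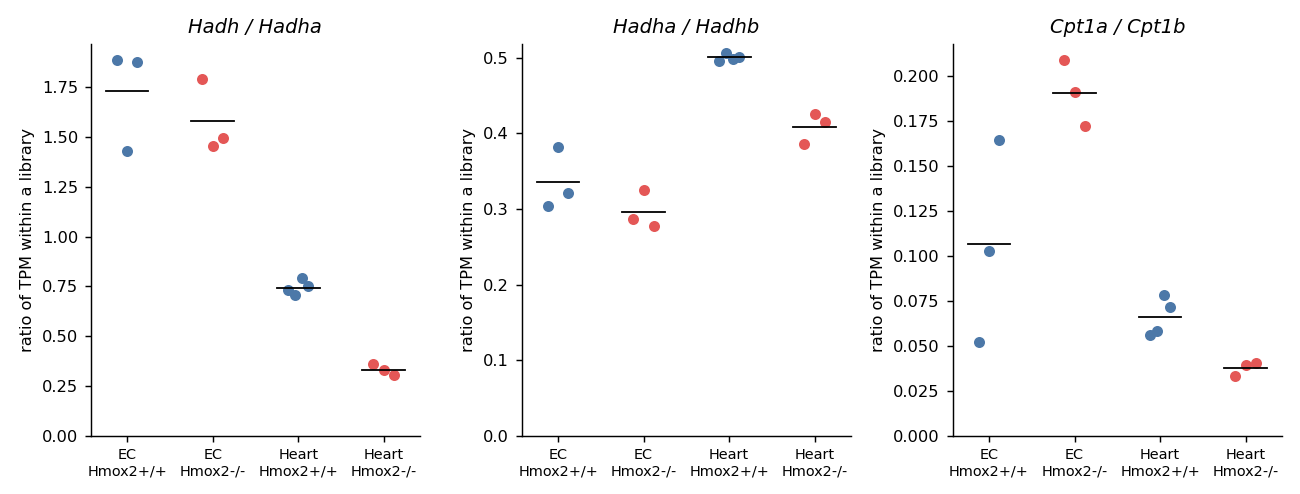
Ratio of TPM within each library for 3 pairs of genes, by tissue and genotype. Points are libraries and black lines arithmetic means, and each axis starts at 0. Hadh to Hadha and Hadha to Hadhb are lower in all Hmox2-/- hearts than in all Hmox2+/+ hearts (0.306 to 0.358 against 0.706 to 0.790, and 0.386 to 0.426 against 0.496 to 0.507).

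Transcription factors and coactivators of the pathway were examined beside the enzymes. In Hmox2-/- hearts Ppargc1b (−0.73), Esrrg (−0.51) and Rxra (−0.41) fell and Esrra rose (0.36), and the other 5 of the 9 did not pass, among them Ppara (24.6 to 39.2 CPM against 28.8 to 35.7 CPM in Hmox2+/+) and Ppargc1a (60.6 to 100.01 CPM against 67.9 to 79.0 CPM). In hearts 1 of the 9 was thus higher and 3 lower, beside 17.2% and 16.2% of all genes tested (33.4% in either direction). Esrra encodes estrogen-related receptor alpha, and Ppargc1b a coactivator that works with it. On the scale of library totals 3 of the 9 were called higher and 1 lower in hearts, beside 35.6% and 6.58% of all genes. In Hmox2-/- ECs Ppara, the receptor that senses fatty acids, fell from 127, 72.4 and 60.1 CPM to 21.1, 22.2 and 27.3 CPM, a log2 fold change of −1.88 ± 0.28 (adjusted p = 0.00736, edgeR). Ppargc1b (−1.54) and Esrra (−0.63) fell too, and none of the 9 rose. The 3 of 9 called lower in ECs stand beside 8.06% of all genes. At baseline Esrrb (log2 6.84), Esrrg (3.53), Ppargc1a (2.05), Esrra (1.19), Rxra (0.82) and Ppard (0.57) were higher in hearts and Pparg (−4.32), the adipocyte receptor, and Ppara (−0.70) lower. These 6 higher and 2 lower of the 9 stand beside 32.5% and 35.4% of all genes.

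Other genes of fatty acid oxidation were examined in the heart, where 17.2% of all genes were called higher and 16.2% lower. A list of 21 further genes was mainly of mitochondrial beta-oxidation. It also held Pcca, Pccb, Mcee and Mmut of propionyl-CoA breakdown and the cytosolic Echdc1. Of these 21 genes 6 rose and none fell in Hmox2-/- hearts (median log2 fold change 0.13). The largest rises were in Hsd17b10 (0.67), a second hydroxyacyl-CoA dehydrogenase of the matrix, Mcee (0.63) and Acad11 (0.59). On the scale of library totals 16 of the 21 were called higher, against 35.6% of all genes, with a median 0.14 above that of all genes. Of the 10 genes of the carnitine shuttle and its control only Cpt1a was called, while on the scale of library totals 4 were higher and 1 lower. Of 13 peroxisomal genes tested Acox2 (1.498) and Decr2 (1.03) rose, and on the scale of library totals 8 were higher. Of 15 genes of fatty acid uptake and activation 4 rose, among them Fabp5 (0.83), Slc27a4 (0.63) and Acsl3 (0.60), and 3 fell, the hormone-sensitive lipase Lipe (−0.56), the transporter Slc27a1 (−0.54) and lipoprotein lipase Lpl (−0.35), but on the scale of library totals 6 of the 15 were higher and none lower.

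Genes that PPAR alpha is known to induce were split in the heart. Of 10 tested Ucp3 (−1.20), Pdk4 (−1.14) and Acot1 (−0.73) were the largest of 4 that fell, and Ucp2 (0.96) and Plin5 (0.39) rose. On the scale of library totals 2 fell and 3 rose. Pdk4 encodes the kinase that holds back pyruvate dehydrogenase when fatty acids are burned.

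In ECs the lists leaned the way of the enzymes. None of the 21 further genes had a positive log2 fold change in Hmox2-/- ECs, though only 4 were called lower (median −0.49). The largest were Echdc3 (−0.87), Pccb (−0.82) and Acads (−0.81). Of 12 genes tested that PPAR alpha induces 3 fell, Pdk4 (−1.05) and Plin5 (−0.71) among them, and none rose. Of the 10 genes of the carnitine shuttle and its control, Cpt1a and Cpt2 among them, only Acacb (−1.43) was called. Acacb belongs to the control of the shuttle and is not a shuttle enzyme. Of 14 peroxisomal genes Acox3 (−0.49) fell. Of 14 uptake and activation genes Lipe (−1.13) and Pnpla2 (−1.05), the lipases of stored fat, fell and Acsl4 (0.53) rose. These shares are to be read against 8.06% of all genes lower in ECs, and the marker sums of other cells given above moved with them.

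The same lists at baseline were mixed, and their counts stand beside 32.5% of all genes tested higher in hearts and 35.4% lower. Of uptake and activation genes 5 were higher in Hmox2+/+ hearts, led by Acsl6 (log2 6.88), Fabp3 (3.44) and Lpl (2.81), and 7 lower, led by Lipe (−3.95), Fabp4 (−3.72) and Acsl5 (−2.63). Of the 21 further genes 7 were higher (Acad12, 1.97, Etfdh, 1.27, and Echdc2, 1.13) and 4 lower (Acad10, −2.58, Echdc1, −1.86, and Pccb, −1.03). Among the peroxisomal genes 8 were lower, led by Acaa1b (−8.40), Abcd2 (−2.33) and Ehhadh (−1.93). On the scale of library totals 13 of the 21 further genes were lower and 2 higher, close to the 63.9% and 13.5% of all genes. In the interaction all 21 of these genes had a positive difference and 11 were called, against 16.2% of all genes called higher, led by Echdc3 (1.47), Etfb (1.38) and Acads (1.26).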

How the data were processed

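Poly(A) RNA from 13 mouse libraries was sequenced as paired-end reads. The authors pseudoaligned the reads with Kallisto 0.44.0 (per the study's methods, against GENCODE mouse release M32; mm10 is also named in the submitters' processing notes) and deposited estimated counts and TPM per transcript, one file per library. Here transcripts were matched to genes by stable identifier in GENCODE M39 (97.2% of 118489 transcripts, 36158 genes) and both units were summed per gene. Expected counts were rounded, filtered (filterByExpr, minimum count 10), normalized by TMM and fitted with edgeR 4.0.16 (R 4.3.3, quasi-likelihood F-test, Benjamini-Hochberg over all genes tested), as the study's methods used edgeR. Genes were called at an adjusted p of at most 0.05. CPM are on the TMM scale of the comparison they belong to. SE is the absolute log2 fold change over the square root of F, and intervals span 2 SE. TPM ratios were compared by exact permutation tests. The fits were tested on simulated counts with known changes. The effective lengths deposited by the authors, in bases, served only to build length-scaled counts. The 10 enzymes, the gene lists and markers, and the rule for naming (the enzymes, Cpt1b, 9 regulators, and up to 3 called genes per list and direction) were chosen with earlier results of these data known. Some genes that the rule would name are not reported here. Replicate numbers were checked as pairs by correlating deviations from group means, which lay between −0.03 and 0.18 and did not pair the samples. DESeq2 1.42.0 and other settings were tried as alternatives. Upstream sequences are from RefSeq (GRCm38.p6) and other coordinates from GRCm39. Intervals and counts cover counting and replicate error only, since the reads carried no molecular identifiers.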

Additional observations from a re-analysis of the deposited data

Results flagged for a closer look

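The genotype effect differed between the tissues for 5 enzymes by the test of the interaction (edgeR's quasi-likelihood test, all 13 libraries), given as the log2 fold change in hearts minus that in ECs. The values were 1.21 for Echs1, 0.94 for Acadl, 0.87 for Acaa2 and 0.79 for Acadvl, each the result of a negative difference in ECs beside one near or above 0 in hearts, and −0.85 for Cpt1a, which fell in hearts only. Acadl, Acaa2 and Acadvl were called in neither tissue by themselves. The Y-linked Ddx3y and the summed CPM of brown adipocyte and cardiomyocyte markers varied between the EC libraries as described. Their part in these differences was not tested. No enzyme had a Hmox2+/+ heart far from the other 3 by Dixon's test, and groups of 3 were not tested.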

How the results depend on the processing

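Of 710 log2 fold changes of the enzymes recomputed under alternative settings, 588 kept their direction and side of the threshold, 52 lost and 44 gained a call, and 26 changed sign; causes were not tested. In ECs 1 enzyme was called, against 7 with DESeq2, 7 with all 13 libraries in one fit, 2 with library totals in place of TMM, 0 with a 2-fold change required, and 0 to 9 when single libraries were left out. In hearts 4 were called, against 1 with a 2-fold change required. Between tissues 4 were called, against 1 with a 2-fold change and 2 to 6 on leaving out single libraries. For the interaction 5 were called, against 3 with upper-quartile scaling, 3 with counts from length-scaled TPM, 1 with a 2-fold change and 3 to 9 on leaving out single libraries.

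Signs changed as follows. With library totals in place of TMM, heart log2 fold changes became 0.26 for Hadhb, 0.19 for Acadm, 0.21 for Cpt2 and 0.15 for Acaa2, and differences between tissues became −0.26 for Hadhb, −0.14 for Acadm, −0.73 for Acadl, −0.35 for Cpt1a and −0.33 for Cpt2. With a length and GC trend removed, Acadvl became −0.13 in hearts, and Hadh 0.17, Acadvl 0.19 and Acaa2 0.0452 between tissues; in hearts Acadm (−0.22) and Acaa2 (−0.41) were then called lower. Acadl between tissues was −0.0548 with upper-quartile scaling and Acadvl 0.0370 with length-scaled TPM. Hadhb in hearts was 0.0126 without the filter and 2.64e-05 with all 13 libraries in one fit. On leaving out single libraries, Hadhb in hearts ran from −0.0175 to 0.00777, and between tissues Hadh ran from −0.25 to 0.0717, Acadl from −0.11 to 0.24 and Acadvl from −0.22 to 0.16.

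The replicate numbers did not pair the samples. With the replicate number as a block, 2 enzymes were called between tissues and 3 for the interaction, Hadhb became 0.00220 in hearts and Acadvl 0.0329 between tissues, and the count over all heart genes went from 4619 to 2901. Over all genes the EC count of 2767 became 4314 with 13 libraries in one fit and 638 to 1666 without one of Hmox2+/+ EC 1 or 2 or Hmox2-/- EC 1, 2 or 3, and the heart count became 2893 without Hmox2-/- heart 2. All 92 recomputed ratios kept their direction, in a design too small for any to pass. Upper-quartile scaling moved the median over all genes from −0.06 to −0.18 between tissues and from 0.03 to −0.08 for the interaction. Hmox2+/+ heart 1, with the fewest counts, was the shallowest library, and 3 or 4 libraries a group limit the precision.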

Other observations

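By the rule for naming, the genes outside all lists whose log2 CPM followed Hadh most closely over the 7 hearts were Gm3558, Rpl15-ps2, Rbpj-ps3, Gm45315 and Tpm3-rs7, and since the hearts fall into separate genotype groups no pooled correlation is given. All 5 fell with Hadh, which follows from how they were chosen, since Hadh itself was split by genotype in the hearts. In Hmox2+/+ hearts Rbpj-ps3 averaged 7.34 ± 0.767 CPM, Gm45315 4.99 ± 0.502, Rpl15-ps2 2.77 ± 0.697 and Gm3558 1.54 ± 0.1702 (SD, n = 4), and all 4 were listed at 0 in the 3 Hmox2-/- hearts. Tpm3-rs7 went from 17.99 ± 1.97 to 0.0692 ± 0.0444 CPM. The genes closest to the mean of the 10 enzymes over all 13 libraries were Aifm1, Stom, Nrp2, Mccc2 and Iqsec3. Mccc2 encodes a mitochondrial carboxylase of leucine breakdown and Aifm1 a mitochondrial flavoprotein.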
